A study of Mus musculus with 19 samples.

Results

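The genes described here are the protein coding mouse genes of the counts table whose symbol is Zfp9 followed by exactly 2 digits (Zfp900 to Zfp999). Of 55416 genes in the table, 65 met that rule, and 63 of them had a mean of at least 0.5 CPM (the count scaled to a fixed library size, after TMM) over the 19 lines. Zfp969 and Zfp957 were below that level, with 0 or 1 count per line for Zfp969 and 0 to 2 counts per line for Zfp957. A further 2 symbols of this range, Zfp939 and Zfp996, belong to another gene type and were left out.

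The lines were mouse embryonic stem cell (mESC) lines, derived from blastomeres that had been separated at the 8-cell stage from embryos of B6CBAF1/J parents, 1 blastomere and 1 library per line. Embryo 3 gave 7 lines (3.1 to 3.7), embryo 2 gave 7 (2.1 to 2.7) and embryo 1 gave 5 (1.1 to 1.5). The study further divided the same lines, after removing the difference between embryos, into group I (11 lines, namely 3.4 to 3.7, 2.3 to 2.6, 1.1, 1.3 and 1.4) and group II (8 lines, namely 3.1 to 3.3, 2.1, 2.2, 2.7, 1.2 and 1.5). Line 2.2 was an exception in the study's principal component analysis and was put with group II by its later co-expression network, and without it 0 members were called between the groups, as with it. The division was made on these same libraries, and a p between the groups is therefore no independent evidence that they exist. All lines grew on human foreskin fibroblasts (HFF-1) whose division had been blocked with mitomycin C, in Knockout Serum Replacement medium with leukemia inhibitory factor, the MEK inhibitor PD0325901 and the TGFβ inhibitor SB431542, and the feeder cells were removed before RNA was extracted. Lines of 1 embryo share a parental embryo, each embryo is a single genotype, and an embryo difference cannot be told apart from a difference of genotype or sex. The p-values measure the spread between lines.

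KRAB zinc finger proteins pair an N-terminal KRAB domain with a row of C2H2 zinc fingers. Each finger reads a few bases of DNA mainly through the residues at helix positions −1, 2, 3 and 6, and the KRAB domain recruits the corepressor Trim28 (KAP1), which brings the H3K9 methyltransferase Setdb1 and heterochromatin proteins. In mESCs this system is known for silencing transposable elements and for protecting imprints. The genes lie in clusters that arose by repeated duplication, and their copy number and sequence differ between mouse strains.

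Of the 65 members, 48 lay in 7 clusters in which neighbouring members were less than 1 Mb apart, and 17 lay alone, over 12 chromosomes. The largest cluster held 16 members on distal chromosome 4 (chr4:145237287-147932882 in GRCm39). Clusters of 10 members each lay on chromosome 2 (chr2:175214229-177720294) and on chromosome 17 (chr17:21787117-23086292). In the coding sequences read from the genome, 58 of 65 members carried the KRAB signature searched for and 59 had at least 1 complete C2H2 finger, with a median of 11 fingers and at most 21.

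The first zinc finger is shown for 6 members called between embryos, and for Zfp987, a member of the chromosome 4 cluster that was not called, because it shows how close some of these genes are to each other. The 63 coding bases of that finger are printed from the first to the last zinc-binding residue, read from GRCm39 with the GENCODE vM39 annotation, and the capitals mark the codons of helix positions −1, 2, 3 and 6.
Zfp990: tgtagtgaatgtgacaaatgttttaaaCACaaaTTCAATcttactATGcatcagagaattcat
Zfp987: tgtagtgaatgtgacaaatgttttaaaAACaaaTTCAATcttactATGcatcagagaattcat
Zfp984: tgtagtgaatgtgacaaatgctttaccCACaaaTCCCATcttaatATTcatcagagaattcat
Zfp992: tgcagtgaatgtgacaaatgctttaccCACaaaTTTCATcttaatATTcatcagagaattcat
Zfp991: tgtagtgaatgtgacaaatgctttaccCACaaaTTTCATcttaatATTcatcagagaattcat
Zfp998: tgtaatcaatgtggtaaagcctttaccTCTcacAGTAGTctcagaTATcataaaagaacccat
Zfp951: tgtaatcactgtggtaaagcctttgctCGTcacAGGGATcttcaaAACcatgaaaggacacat
The fingers of Zfp990 and Zfp987 differed at 1 of 63 bases, and that base lay in a contact codon. Those of Zfp992 and Zfp991 also differed at 1 base, with 0 of 12 contact bases different, and their whole coding sequences were 99.5% identical. The finger of Zfp990 differed from that of Zfp998, on chromosome 13, at 28 bases, 10 of them among the 12 contact bases.

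Sequence shared between members bears on every count here, because reads that fit several genes are divided among them by the expected counts. Over the canonical transcripts, the median member shared 22.5% of its 51-base windows with another gene, and 22 of 65 members shared more than 50% of them. Zfp965, Zfp966, Zfp967, Zfp968, Zfp969, Zfp935 and Zfp986 had every window in common with another gene, so their own levels are uncertain. For Zfp986 these were only 13 windows of a 63-base canonical transcript, while its exons cover 1427 bases, so little of that gene was compared. For Zfp935, 99.2% of windows were shared with a gene that carries the symbol Zfp935 in vM39, where the ID counted here is named Gm49359. Zfp990 (18.5%), Zfp982 (4.94%), Zfp985 (16.4%), Zfp981 (16.6%), Zfp983 (9.37%) and Zfp951 (9.63%) shared few windows. Zfp991 (66.8%), Zfp992 (60.04%), Zfp984 (62.3%), Zfp989 (73.7%), Zfp997 (69.6%) and Zfp960 (83.0%, most of them with Zfp97) shared many. Zfp998 shared 35.9%, and its closest relative among the members was Zfp997, with 89.1% identity where their coding sequences aligned.

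The 200 bases upstream of the start of the canonical transcript were similar between several members of the chromosome 4 cluster. That start need not be the start of the gene, and the stretch of Zfp991 lies inside its annotated gene. They are printed 5′ to 3′ on the strand of the gene (GRCm39), and the capitals mark CCAAT or its reverse complement ATTGG, the letters of the CCAAT box. The stretches are those of Zfp990 (chr4:145237087-145237286, plus strand), Zfp987 (chr4:146033621-146033820, plus strand), Zfp984 (chr4:147894328-147894527, minus strand), Zfp991 (chr4:147216260-147216459, plus strand) and, for comparison, Zfp998 (chr13:66589227-66589426, minus strand).
Zfp990: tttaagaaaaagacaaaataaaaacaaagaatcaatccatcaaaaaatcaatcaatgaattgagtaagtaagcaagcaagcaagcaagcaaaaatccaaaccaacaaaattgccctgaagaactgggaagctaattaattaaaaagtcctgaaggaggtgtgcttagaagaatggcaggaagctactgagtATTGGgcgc
Zfp987: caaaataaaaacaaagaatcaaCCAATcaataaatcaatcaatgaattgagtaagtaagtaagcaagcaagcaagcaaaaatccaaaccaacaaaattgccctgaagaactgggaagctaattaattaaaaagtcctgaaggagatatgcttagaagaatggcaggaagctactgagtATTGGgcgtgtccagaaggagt
Zfp984: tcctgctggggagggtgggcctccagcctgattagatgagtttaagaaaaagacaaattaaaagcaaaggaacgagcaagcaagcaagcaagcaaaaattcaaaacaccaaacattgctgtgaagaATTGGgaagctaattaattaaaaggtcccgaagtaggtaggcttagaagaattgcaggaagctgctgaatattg
Zfp991: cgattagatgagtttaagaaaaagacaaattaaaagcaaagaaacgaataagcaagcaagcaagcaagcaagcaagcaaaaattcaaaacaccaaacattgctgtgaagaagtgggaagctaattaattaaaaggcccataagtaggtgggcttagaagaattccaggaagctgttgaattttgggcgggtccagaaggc
Zfp998: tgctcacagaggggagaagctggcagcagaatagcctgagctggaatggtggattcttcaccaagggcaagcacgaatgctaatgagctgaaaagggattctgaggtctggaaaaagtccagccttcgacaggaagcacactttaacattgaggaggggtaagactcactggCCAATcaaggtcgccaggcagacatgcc
The upstream stretches of Zfp990 and Zfp987 were 90% identical, and those of Zfp991 and Zfp984 were 81.0% identical. CCAAT or ATTGG was present in 47 of 65 members (72.3%), against 32.3% of the 21770 upstream stretches of the same length read from the annotation, and in 11 of the 16 members of the chromosome 4 cluster. Members had a median of 3 CpG dinucleotides in this window, against 7 over all genes. A match of these letters is a description of the sequence and not a binding site.

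The 19 libraries held 33846569 to 48740941 counts (median 41942274). Among 171 pairs of libraries, 0 were identical. The 10 mESC markers were expressed in every group, with a summed level of 3899 to 5218 CPM in embryo 3, 3141 to 4277 CPM in embryo 2 and 3111 to 5904 CPM in embryo 1. Of these, 2 were called among the embryos, Zfp42 (log2 fold change of embryo 3 against embryo 1 -0.64, and of embryo 2 against embryo 1 -0.87) and Tdgf1 (-0.70 for embryo 2 against embryo 1). The other lists were lower. Fibroblast markers summed to 311 to 873 CPM in embryo 3, 312 to 854 CPM in embryo 2 and 235 to 814 CPM in embryo 1, and 1 of 10 was called among the embryos (the call is defined with the comparison of embryos). Trophectoderm markers, of which 4 of 6 were called, summed to 42.3 to 235 CPM in embryo 3, 23.6 to 262 CPM in embryo 2 and 21.04 to 45.8 CPM in embryo 1. Krt8 and Krt18 had the highest means of that list, and its called markers did not share a direction. For embryo 3 against embryo 1, Gata3, Krt8 and Krt18 were higher, with log2 fold changes of 1.81, 2.16 and 2.10. Eomes instead had its highest mean in embryo 1, with a log2 fold change of -1.40 for embryo 2 against embryo 1. The 10 markers of 2-cell-like cells, of which 1 was called, summed to 4.76 to 119 CPM in embryo 3, 9.97 to 45.7 CPM in embryo 2 and 11.5 to 52.8 CPM in embryo 1. Primitive endoderm markers, 1 of 6 called, summed to 8.97 to 18.0 CPM in embryo 3, 8.75 to 11.6 CPM in embryo 2 and 8.30 to 13.1 CPM in embryo 1. No marker of these lists was at 0 in every line, and their part in the embryo differences of the members was not tested. Against their sister lines, the 5 largest shifts of a whole chromosome were those of line 2.2 (chromosome 8, median log2 difference 0.41), line 3.1 (chromosome 8, 0.33), line 3.2 (chromosome 13, 0.30), line 3.6 (chromosome 14, -0.41) and line 3.7 (chromosome 6, -0.32), with the members left out of these medians. Smaller shifts followed, the largest being that of chromosome 6 in line 3.4 (0.25), chromosome 1 in line 2.6 (0.19), chromosome 6 in line 1.4 (-0.17) and chromosome 8 in line 1.2 (0.17), so the other 14 lines were not free of them. For chromosome 4 the median of each line stayed between -0.06 and 0.08, and for chromosome 5 between -0.04 and 0.02.

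Levels differed widely among the 63 members, with means of 0.751 to 319 CPM and a median of 17.4 CPM. The chromosome 4 cluster carried 67.4% to 71.2% of the summed CPM of the members, depending on the line (median 70.0%). All 6 members with a mean over 100 CPM lay in it. Per kb of exon, Zfp980 was highest at 75.4 CPM per kb (81.2 in embryo 3, 70.9 in embryo 2 and 73.6 in embryo 1), followed by Zfp979 at 34.3 and Zfp992 at 33.8, and 8 of the 10 highest members were of the chromosome 4 cluster. The median member stood at 2.46 CPM per kb.

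Zfp980 (chr4:145397209-145431016, plus strand) had 307, 333 and 398 CPM as the lowest, median and highest line of embryo 3, 225, 305 and 395 CPM in embryo 2, and 289, 332, 306, 282 and 348 CPM in the lines of embryo 1. These ranges overlap, and Zfp980 was not called in any pair of embryos (adjusted p over the 3 embryos 0.332, edgeR). It shared 75.5% of its windows with other genes, most of them with Rex2. At the other end stood Zfp983 at 0.092 CPM per kb, Zfp968 at 0.167 and Zfp974 at 0.181. Zfp974 had 1.55, 1.87 and 2.69 CPM as the lowest, median and highest line of embryo 3, 1.45, 2.24 and 2.54 CPM in embryo 2, and 1.95 to 4.31 CPM in embryo 1. Zfp968 had 1.03 to 2.21 CPM in embryo 3, 0.221 to 2.07 CPM in embryo 2 and 0.302 to 2.51 CPM in embryo 1, and neither was called.

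To ask which members differed between embryos, the quasi-likelihood test of edgeR was run on all 18878 genes that passed its filter on low counts. A call needed a Benjamini-Hochberg adjusted p below 0.05 together with a change of more than 1.5-fold. All 63 described members passed that filter. Over the 3 embryos, 13 of the 63 members were called (20.6%), against 9.49% of all genes tested, 8.45% of protein coding genes and 18 of 290 other Zfp genes at or above 0.5 CPM (6.21%). A further 4 members, Zfp949, Zfp979, Zfp993 and Zfp936, had an adjusted p under 0.05 with no fold change over 1.5. At that adjusted p, with any fold change, stood 17 of the 63 members and 2564 of the 18878 genes. The 13 called members were Zfp990, Zfp982, Zfp985, Zfp984, Zfp992, Zfp981, Zfp989 and Zfp991 on chromosome 4, Zfp997 and Zfp998 on chromosome 13, Zfp951 on chromosome 5, and Zfp960 and Zfp983 on chromosome 17. That is 8 of 16 described members of the chromosome 4 cluster (50.0%) and 5 of the 47 others (10.6%). The clusters of chromosomes 2, 7 and 8 had no called member among 9, 4 and 3 described.

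By pairs, 9 of 63 members were called between embryo 3 and embryo 1, 6 higher and 3 lower in embryo 3 (all genes tested: 5.45% called). Between embryo 3 and embryo 2, 9 were called, 5 higher and 4 lower in embryo 3 (all genes: 5.63%), and 6 members were called in both of these comparisons, which share the lines of embryo 3. Between embryo 2 and embryo 1, 2 were called, 1 higher and 1 lower in embryo 2 (all genes: 4.35%). The median log2 fold change of the 63 members was -0.0016 for embryo 3 against embryo 1, -0.03 for embryo 3 against embryo 2 and -0.01 for embryo 2 against embryo 1, beside -0.0081, 0.0049 and -0.0054 over all genes tested. The heat map of all members shows the called genes of the chromosome 4 cluster set the lines of embryo 3 apart from those of embryos 2 and 1, between which 0 members of that cluster were called, and that lines 3.5 and 2.1 stood apart over many rows.

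**Figure D1:**
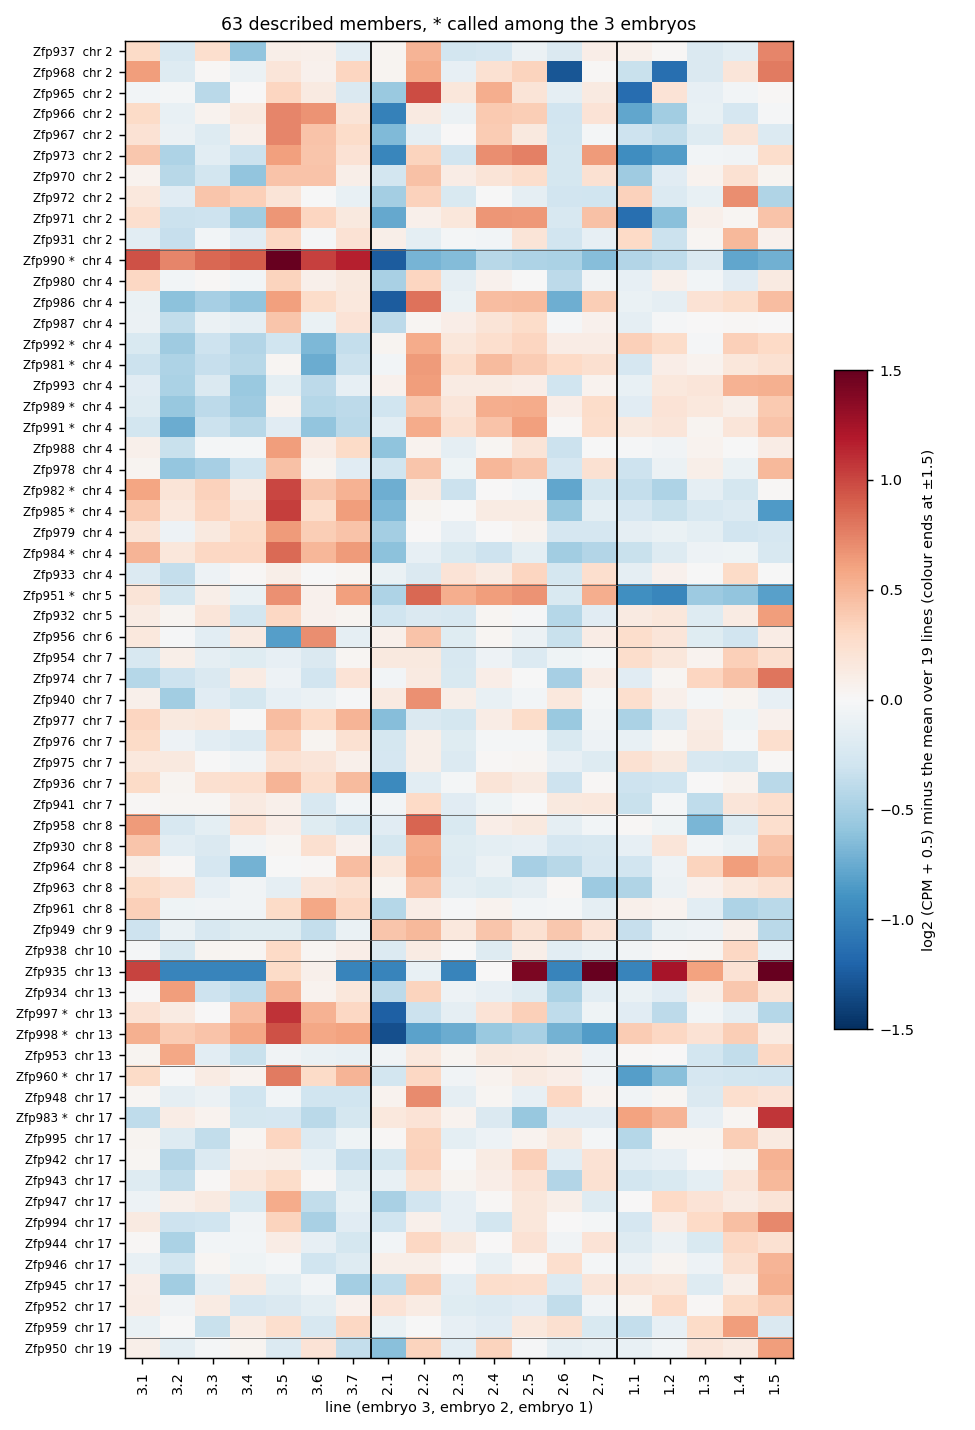
Heat map of the 63 described members in chromosome order (rows, an asterisk marks the 13 called among the 3 embryos) over the 19 lines (columns, embryo 3, embryo 2 and embryo 1). Colour gives log2 (CPM + 0.5) minus the mean of the member over the 19 lines, and Zfp990 is red in all 7 lines of embryo 3 while Zfp998 is blue in all 7 lines of embryo 2.

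The summed CPM of the 63 members was highest in line 3.5 (3116 CPM) and lowest in line 2.1 (1735 CPM). By embryo the sum averaged 2486 ± 333 CPM over the 7 lines of embryo 3, 2273 ± 336 CPM over the 7 of embryo 2 and 2244 ± 102 CPM over the 5 of embryo 1 (SD), and these ranges overlapped.

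The largest embryo difference among the members was that of Zfp990 (chr4:145237287-145269397, plus strand), the first member of the chromosome 4 cluster. For Zfp990 the lowest, median and highest of the 7 lines of embryo 3 were 134, 157 and 228 CPM, those of the 7 lines of embryo 2 were 33.8, 51.5 and 60.3 CPM, and the 5 lines of embryo 1 (1.1 to 1.5) stood at 59.4, 61.7, 69.2, 46.8 and 48.7 CPM. Every line of embryo 3 was above every line of the other embryos. The log2 fold change was 1.54 ± 0.15 (SE) against embryo 1 (adjusted p = 3.97e-07, edgeR) and 1.68 ± 0.13 against embryo 2 (adjusted p = 1.25e-08), a level 2.91 and 3.21 times as high, while embryos 2 and 1 differed by -0.14 (adjusted p = 0.623).

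The other members of this cluster called higher in embryo 3 lay at its far end. For Zfp984 (chr4:147838429-147894327, minus strand), the lowest, median and highest of the 7 lines of embryo 3 were 90.8, 114 and 146 CPM, those of the 7 lines of embryo 2 were 52.3, 65.0 and 74.3 CPM, and the 5 lines of embryo 1 (1.1 to 1.5) stood at 63.8, 70.5, 76.3, 77.3 and 68.0 CPM. No line of embryo 3 overlapped with the other embryos, and its log2 fold change was 0.67 ± 0.11 against embryo 1 (adjusted p = 0.000536, edgeR) and 0.82 ± 0.10 against embryo 2 (adjusted p = 1.11e-05).

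For Zfp982 (chr4:147545583-147601280, plus strand), the lowest, median and highest of the 7 lines of embryo 3 were 36.4, 44.1 and 67.0 CPM, those of the 7 lines of embryo 2 were 19.1, 27.4 and 36.4 CPM, and the 5 lines of embryo 1 (1.1 to 1.5) stood at 25.8, 23.8, 30.2, 27.6 and 33.6 CPM. The lowest line of embryo 3 and the highest line of embryo 2 were nearly level. Against embryos 1 and 2 the log2 fold change was 0.72 ± 0.17 and 0.74 ± 0.15 (adjusted p = 0.0101 and 0.00292, edgeR). The call against embryo 1 was lost without lines 2.2, 3.1, 3.2, 3.6 and 3.7 (0.78, adjusted p = 0.0551). That fit kept only lines 3.3, 3.4 and 3.5 of embryo 3. For Zfp985 (chr4:147637679-147669658, plus strand), the lowest, median and highest of the 7 lines of embryo 3 were 108, 121 and 199 CPM, those of the 7 lines of embryo 2 were 60.2, 96.1 and 105 CPM, and the 5 lines of embryo 1 (1.1 to 1.5) stood at 80.9, 76.1, 81.3, 83.8 and 53.4 CPM. Line 3.5 was the highest and line 1.5 the lowest, and the lines of embryo 3 did not overlap with the others. Its log2 fold change was 0.82 ± 0.17 against embryo 1 (adjusted p = 0.00425, edgeR) and 0.59 ± 0.15 against embryo 2 (adjusted p = 0.0184), and the call against embryo 2 was lost without line 3.5, 3.7, 2.1 or 2.6 (log2 fold change 0.46 to 0.56, adjusted p = 0.0357 to 0.0466), and without lines 2.2, 3.1, 3.2, 3.6 and 3.7 together (0.73, adjusted p = 0.0974).

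Between these ends lay a run of members that were lower in embryo 3. Without lines 2.2, 3.1, 3.2, 3.6 and 3.7, none of the 4 lower calls against embryo 2 was kept (log2 fold change -0.56 to -0.51), that of Zfp991 against embryo 1 was lost as well (-0.50), and Zfp992 against embryo 1 stayed called (-0.60). For Zfp992 (chr4:146533480-146554749, plus strand), the lowest, median and highest of the 7 lines of embryo 3 were 114, 142 and 155 CPM, those of the 7 lines of embryo 2 were 188, 204 and 268 CPM, and the 5 lines of embryo 1 (1.1 to 1.5) stood at 233, 219.8, 180.3, 233 and 223 CPM. All lines of embryo 3 were below all other lines. Zfp992 had a log2 fold change of -0.66 ± 0.09 against embryo 1 and -0.63 ± 0.09 against embryo 2 (adjusted p = 8.32e-05 and 4.29e-05, edgeR), and against embryo 2 it was -0.57 without line 2.2, a change under 1.5-fold.

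For its near-identical partner Zfp991 (chr4:147209439-147268015, plus strand), the lowest, median and highest of the 7 lines of embryo 3 were 53.9, 68.5 and 80.5 CPM, those of the 7 lines of embryo 2 were 81.2, 109 and 139 CPM, and the 5 lines of embryo 1 (1.1 to 1.5) stood at 100.3, 103, 93.7, 103 and 122 CPM. The lines of embryo 3 were again below the others without overlap. Its log2 fold change was -0.61 ± 0.12 against embryo 1 and -0.71 ± 0.11 against embryo 2 (adjusted p = 0.00312 and 0.000241, edgeR), and the call against embryo 1 was lost without line 1.5, 3.2 or 3.6 (log2 fold change -0.58 to -0.55). Reads of Zfp991 and Zfp992 can be exchanged between them, so their differences are not separate measurements.

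For Zfp981 (chr4:146559382-146623914, plus strand), the lowest, median and highest of the 7 lines of embryo 3 were 79.0, 105 and 136 CPM, those of the 7 lines of embryo 2 were 129, 164 and 208 CPM, and the 5 lines of embryo 1 (1.1 to 1.5) stood at 111, 143, 138, 149 and 156 CPM. Only the highest line of embryo 3 (3.5) reached into the ranges of embryos 2 and 1. Against embryo 2 the log2 fold change was -0.69 ± 0.11 (adjusted p = 0.000239, edgeR), and that against embryo 1, -0.42 ± 0.12, did not reach a 1.5-fold change. For Zfp989 (chr4:147056433-147075212, plus strand), the lowest, median and highest of the 7 lines of embryo 3 were 32.9, 37.0 and 50.95 CPM, those of the 7 lines of embryo 2 were 39.7, 59.4 and 72.0 CPM, and the 5 lines of embryo 1 (1.1 to 1.5) stood at 43.5, 56.7, 54.6, 52.2 and 64.2 CPM. The ranges of embryos 3 and 2 overlapped, and the log2 fold change was -0.62 ± 0.13 (adjusted p = 0.00284, edgeR), a call lost without line 2.4, 2.5 or 3.2 (-0.58 to -0.56).

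In order along chromosome 4, Zfp990 was higher in embryo 3, Zfp980, Zfp986 and Zfp987 were not called, then Zfp992, Zfp981, Zfp989 and Zfp991 were lower with Zfp993 among them, Zfp988 and Zfp978 were not called, and Zfp982, Zfp985 and Zfp984 were higher with Zfp979 among them. Zfp993 and Zfp979 had the direction of their neighbours, with log2 fold changes of -0.57 and 0.48 against embryo 1, and were under 1.5-fold. The canonical transcript of Zfp993, of 387 bases, shared 84.9% of its windows with Zfp991, so its value is not a separate measurement. The 4 members called higher summed to 459 ± 90.7 CPM in embryo 3, 232 ± 38.2 CPM in embryo 2 and 232 ± 19.0 CPM in embryo 1 (SD), and the 4 called lower to 349 ± 42.7 CPM in embryo 3, 554 ± 79.1 CPM in embryo 2 and 516 ± 39.4 CPM in embryo 1. These 2 sums are a description, since their members were taken from the same test. The whole cluster summed to 1720 ± 255.5 CPM in embryo 3, 1605 ± 247 CPM in embryo 2 and 1572 ± 66.3 CPM in embryo 1.

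**Figure D2:**
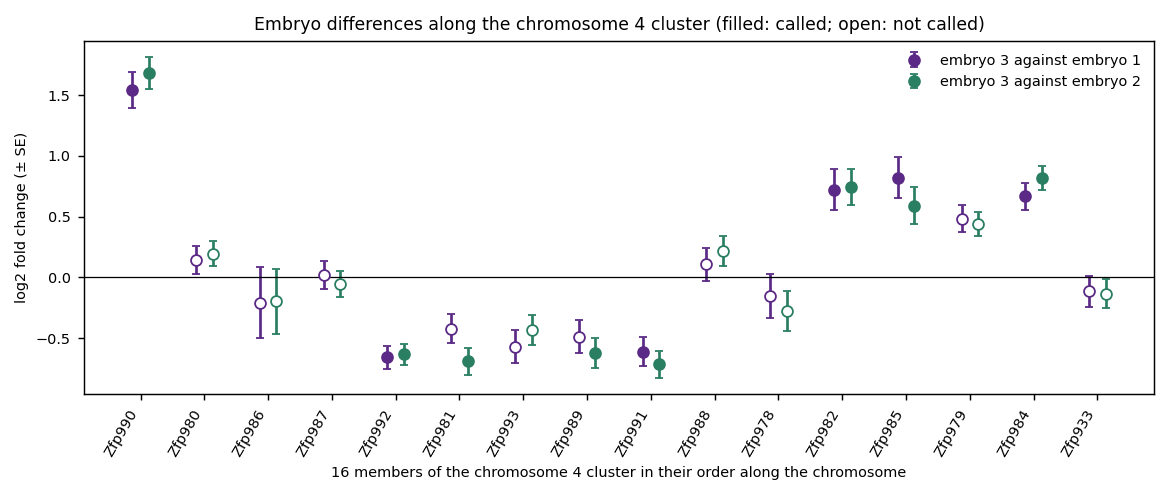
Log2 fold change (± SE, edgeR) of the 16 members of the chromosome 4 cluster in their order along the chromosome, for embryo 3 against embryo 1 and embryo 3 against embryo 2. Filled points were called, and the values run from 1.54 and 1.68 at Zfp990 through a run of negative values at Zfp992 to Zfp991 to positive values at Zfp982 to Zfp984.

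Genes that are not members shared the interval. Of 5 other protein coding genes tested there (Zfp268, Zfp600, Gm21411, Rex2 and Zfp534), 0 were called in any pair of embryos. Rex2 was higher in embryo 3, at a log2 fold change of 0.44 against embryo 1 and 0.42 against embryo 2 (adjusted p = 0.0211 and 0.0131, edgeR). It overlaps Zfp989 in position, and so lies among the members that were lower in embryo 3. Of 32 genes of other types in the interval, 14 were called among the 3 embryos, with 6 higher and 6 lower in embryo 3 when set against embryo 1. Once the embryo means were subtracted, all 15 pairs of neighbours in the cluster had a positive correlation of log2 CPM over the 19 lines (0.38 to 0.89, median 0.76). The 105 pairs of members that were not neighbours ran from -0.099 to 0.942 (median 0.66), so high values were not particular to neighbours. Over all lines with the embryo differences kept in, the 15 values of neighbours ran from -0.06 to 0.94, and the 105 others from -0.84 to 0.94. These correlations describe 19 libraries that share depth and reads between similar genes.

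Off chromosome 4, Zfp998 (chr13:66566173-66589226, minus strand) was low in embryo 2. For Zfp998 the lowest, median and highest of the 7 lines of embryo 3 were 69.3, 79.3 and 103 CPM, those of the 7 lines of embryo 2 were 20.9, 31.4 and 37.6 CPM, and the 5 lines of embryo 1 (1.1 to 1.5) stood at 68.8, 65.7, 61.6, 68.2 and 57.6 CPM. The lines of the 3 embryos did not overlap. Zfp998 had a log2 fold change of 1.36 ± 0.11 for embryo 3 against embryo 2 (adjusted p = 1.60e-08, edgeR) and -1.05 ± 0.12 for embryo 2 against embryo 1 (adjusted p = 3.19e-06), while embryo 3 against embryo 1 gave 0.31 ± 0.12 (adjusted p = 0.099). Chromosome 13 as a whole was shifted in line 3.2, whose Zfp998 level of 69.3 CPM was the lowest of embryo 3. In that line Zfp953 (12.6 CPM) and Zfp934 (28.9 CPM) were higher than in any other line, while Zfp997 (18.0 CPM) and Zfp935 (0 CPM) were not. The part of the shift in these values was not tested. Both calls of Zfp998 held when lines 2.2, 3.1, 3.2, 3.6 and 3.7 were left out.

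Its neighbour Zfp997 (chr13:66261294-66271953, plus strand) was called over the 3 embryos together (adjusted p = 0.0446, edgeR) but in no single pair, with 16.5, 20.6 and 35.6 CPM as the lowest, median and highest line of embryo 3, 6.79, 15.1 and 21.3 CPM in embryo 2, and 12.2 to 16.1 CPM in embryo 1. Zfp997 shared 69.6% of its windows with other genes, so its level is uncertain. Zfp953, the third member there, averaged 8.36 CPM in embryo 3, 8.73 CPM in embryo 2 and 8.06 CPM in embryo 1 and was not called. Of the 13 other protein coding genes tested between Zfp997 and Zfp953, 0 were called among the embryos. Of 28 genes of other types in that interval 8 were called, of which embryo 3 against embryo 2 gave 6 higher and 2 lower, and embryo 2 against embryo 1 gave 1 higher and 6 lower.

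Zfp951 (chr5:104960515-105008190, minus strand), which lies alone on chromosome 5, was low in embryo 1. For Zfp951 the lowest, median and highest of the 7 lines of embryo 3 were 20.4, 26.1 and 39.7 CPM, those of the 7 lines of embryo 2 were 17.6, 36.0 and 45.0 CPM, and the 5 lines of embryo 1 (1.1 to 1.5) stood at 12.8, 12.2, 16.6, 16.1 and 13.7 CPM. The lines of embryo 1 were below all lines of embryos 3 and 2, whose own ranges overlapped. Zfp951 had a log2 fold change of 1.01 ± 0.21 for embryo 3 (adjusted p = 0.00499, edgeR) and 1.22 ± 0.21 for embryo 2 (adjusted p = 0.00103), both against embryo 1. Within 1 Mb on both sides, 4 of 14 other protein coding genes tested were called among the embryos. For embryo 2 against embryo 1, Spp1 (log2 fold change -0.65) and Pkd2 (-0.86) were lower. Gbp8 (1.54, with a mean of 0.174 CPM) and Gbp9 (1.76) were higher in that comparison. Spp1 was also lower in embryo 3 than in embryo 1, by a log2 fold change of -0.70.

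On chromosome 17, Zfp960 (chr17:17284305-17309890, plus strand) was higher in embryo 3 than in embryo 1. For Zfp960 the lowest, median and highest of the 7 lines of embryo 3 were 30.9, 37.9 and 53.5 CPM, those of the 7 lines of embryo 2 were 25.4, 32.2 and 38.5 CPM, and the 5 lines of embryo 1 (1.1 to 1.5) stood at 17.3, 19.8, 25.9, 25.5 and 25.2 CPM. No line of embryo 3 overlapped with embryo 1, and the log2 fold change was 0.76 ± 0.14 (adjusted p = 0.00152, edgeR). Most of its sequence is shared with Zfp97, so this level is uncertain. Zfp983 (chr17:21869483-21885498, plus strand) was the least abundant called member, with 23 to 113 counts per line. For Zfp983 the lowest, median and highest of the 7 lines of embryo 3 were 0.591, 0.702 and 1.06 CPM, those of the 7 lines of embryo 2 were 0.473, 0.785 and 1.16 CPM, and the 5 lines of embryo 1 (1.1 to 1.5) stood at 1.69, 1.55, 0.828, 0.971 and 2.54 CPM. The ranges overlapped, the log2 fold change against embryo 1 was -0.98 ± 0.28 (adjusted p = 0.0321, edgeR), and the call was lost without line 3.1, 3.4, 3.5, 3.6, 3.7, 1.1, 1.2 or 1.5 (log2 fold change -0.97 to -0.72, adjusted p = 0.052 to 0.129), and also without lines 2.2, 3.1, 3.2, 3.6 and 3.7 together (-0.92, adjusted p = 0.2).

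**Figure D3:**
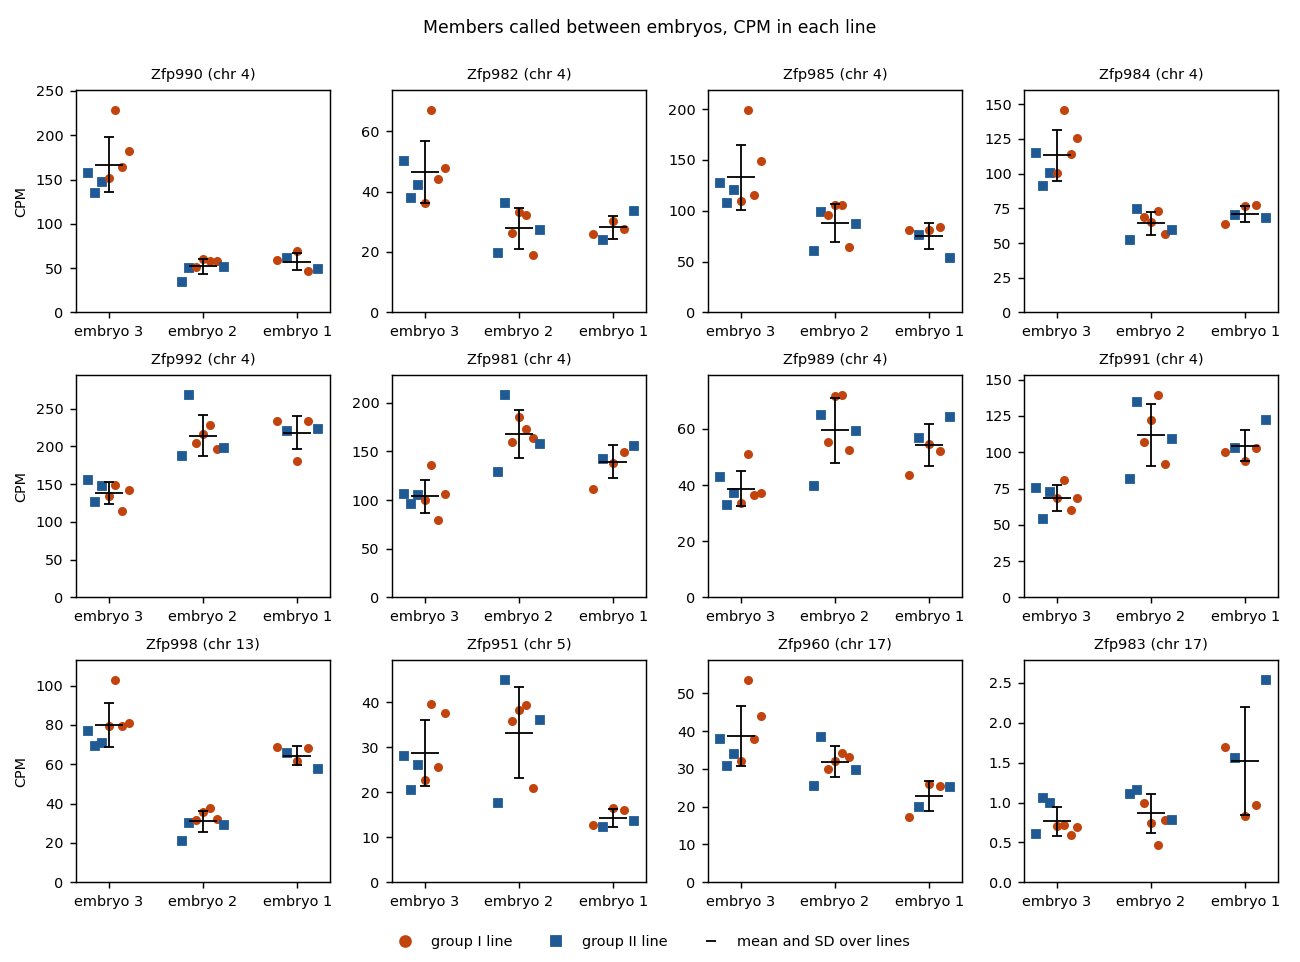
CPM (linear axis from 0) in each of the 19 lines for the 12 members called between embryos in pairs. Circles are group I lines, squares are group II lines, and the bars give the mean and SD over the lines of an embryo, and the top row shows embryo 3 highest while the second row shows it lowest.

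The other 50 members were not called. In the chromosome 2 cluster Zfp965 to Zfp968, Zfp970 to Zfp973 and Zfp931 had means of 0.825 to 23.7 CPM. In the chromosome 7 cluster Zfp977, Zfp976, Zfp975 and Zfp936 stood between 13.1 and 72.1 CPM, and in that of chromosome 8 Zfp930, Zfp964 and Zfp963 stood between 1.61 and 26.0 CPM. The chromosome 17 cluster held Zfp942 to Zfp948, Zfp994 and Zfp995 beside the called Zfp983, all at 24.5 CPM or less. Not called in the chromosome 4 cluster were Zfp978 to Zfp980, Zfp986 to Zfp988, Zfp993 and Zfp933, and on chromosome 13 Zfp934, Zfp935 and Zfp953. The members that lie alone and were not called were Zfp932, Zfp937, Zfp938, Zfp940, Zfp941, Zfp949, Zfp950, Zfp952, Zfp954, Zfp956, Zfp958, Zfp959, Zfp961 and Zfp974, at 69.6 CPM or less. Zfp958, Zfp930, Zfp964, Zfp963 and Zfp961 lie on chromosome 8, the whole of which was higher in lines 2.2, 3.1 and 1.2 than in their sister lines (median log2 difference 0.41, 0.33 and 0.17), and the part of that shift in their values was not tested. Among the 50 the log2 fold change of embryo 3 against embryo 1 ran from -1.63 to 0.64, that against embryo 2 from -0.94 to 0.46, and that of embryo 2 against embryo 1 from -0.68 to 0.58. The lowest of these values were those of Zfp935, whose counts jumped between 0 and 117 within an embryo. In vM39 its windows were all shared, nearly all of them with a gene that now carries its symbol. Its adjusted p over the 3 embryos was 0.554.

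The genes whose log2 CPM over the 19 lines was most like that of the 3 members with the smallest p over the embryos are given as a description, out of 13695 protein coding genes. For Zfp990 these were Rps18-ps6 (Pearson r = 0.96), Tagap (0.95) and Hmga1b (0.95). For Zfp998 they were C1s1 (0.95), Gm10282 (0.93) and Gm12666 (0.92), and for Zfp984 they were Zfp990 (0.94), Zfp982 (0.92) and Cul2 (0.91).

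Genes for the partners of KRAB zinc finger proteins were described in the same fit. Of 30 such genes, 0 were called for embryo 3 against embryo 1 (all genes tested: 5.45%), 0 for embryo 3 against embryo 2 (all genes: 5.63%) and 1, higher in embryo 2, for embryo 2 against embryo 1 (3.33%, all genes: 4.35%). That gene was Smarcad1, a chromatin remodeller, at 175 ± 26.8 CPM in embryo 2 and 115 ± 25.8 CPM in embryo 1 (SD), with a log2 fold change of 0.61 (adjusted p = 0.0187, edgeR). Trim28 stood at 2367 ± 390 CPM in embryo 3, 1943 ± 319 CPM in embryo 2 and 2071 ± 467 CPM in embryo 1, and Setdb1 at 172 ± 12.8 CPM in embryo 3, 158 ± 15.4 CPM in embryo 2 and 165 ± 10.4 CPM in embryo 1, and neither was called.

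Between group I and group II, with embryo as a block, 0 of the 63 members were called by edgeR, against 11.9% of the 20333 genes tested. At an unadjusted p under 0.05 there were 13 of the 63 members, beside 7953 of the 20333 genes tested. At an adjusted p under 0.05 there were 7 members, all below 1.5-fold, beside 5231 of all genes at any fold change. DESeq2 called 0. The log2 fold change ran from -0.94 to 0.47 with a median of -0.0066, beside 0.0043 over all genes tested, and its lower end was again Zfp935. Of the 290 other Zfp genes 9 were called, all lower in group I, and of the 30 partner genes 0. At an adjusted p under 0.05 there were 7 partner genes, all below 1.5-fold. Trim28 (log2 fold change 0.39), Setdb1, Resf1 and Hdac1 were higher in group I, and Dnmt3a (-0.43), Ehmt1 and Ehmt2 were lower. Zfp983 was called, lower in group I, in 3 of the fits that left out a line, those without line 1.1, 2.3 or 3.1 (log2 fold change -0.60 to -0.59).

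The 3 members with the smallest p were Zfp997, Zfp998 and Zfp952, none of which passed the fold threshold. Zfp997 and Zfp998 are neighbours of similar sequence and shared 69.6% and 35.9% of their windows with other genes, which limits both results. For Zfp997 the lowest, median and highest lines were 12.6, 19.1 and 35.6 CPM in group I, against 6.79, 14.4 and 19.2 CPM in group II, with a log2 fold change of 0.47 ± 0.14 (adjusted p = 0.016, edgeR). The groups overlapped over all lines and within embryo 2. In embryo 3 the lines of group I (20.6 to 35.6 CPM) were all above those of group II (16.5 to 19.2 CPM), as were those of embryo 1 (14.6 to 16.1 CPM in group I, against 12.2 to 12.4 CPM in group II). For Zfp998 the values were 31.4, 68.2 and 103 CPM in group I, against 20.9, 61.6 and 76.7 CPM in group II, and the log2 fold change was 0.25 ± 0.08 (adjusted p = 0.018, edgeR). Group I lay above group II without overlap in embryo 3 (79.3 to 103 CPM in group I, against 69.3 to 76.7 CPM in group II) and in embryo 2 (31.4 to 37.6 CPM in group I, against 20.9 to 30.1 CPM in group II), and the groups overlapped in embryo 1.

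Zfp952, a member that lies alone on chromosome 17, had 7.43, 8.62 and 11.96 CPM as the lowest, median and highest line of group I, against 9.36, 10.6 and 12.7 CPM in group II. Its log2 fold change was -0.25 ± 0.08 (adjusted p = 0.0195, edgeR). The groups overlapped over all lines and in embryo 3, and group I lay below group II without overlap in embryo 2 (7.43 to 8.62 CPM in group I, against 9.36 to 11.3 CPM in group II) and in embryo 1 (9.83 to 11.96 CPM in group I, against 12.1 to 12.7 CPM in group II). Fibroblast markers, counted after alignment to the mouse genome alone, moved with the groups: 7 of 10 were called higher and 1 lower in group I, and their summed level was 430 to 873 CPM in group I, against 235 to 637 CPM in group II, with no marker at 0 in every line. The mESC markers Tfcp2l1 and Klf4 (2 of 10) and the primitive endoderm markers Gata6 and Pdgfra (2 of 6) were also called higher in group I, and the part of these lists in the values of the members was not tested. With a score of 5 such markers in the model, 1 member had an unadjusted p under 0.05 and 0 were called, but so were 0 of all genes, of which 2417 were called without the score.

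**Figure D4:**
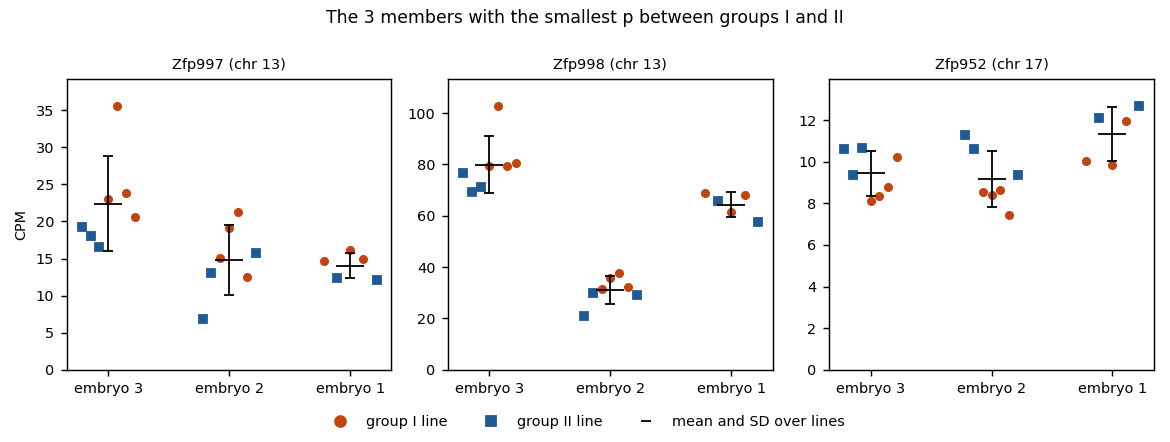
CPM (linear axis from 0) of Zfp997, Zfp998 and Zfp952 in each line by embryo, with circles for group I, squares for group II, and bars for the mean and SD over the lines of an embryo. In embryo 3 the circles of Zfp997 lie at 20.6 to 35.6 CPM and the squares at 16.5 to 19.2 CPM, each member separates the groups within 2 of the 3 embryos, and none of the 3 members passed the fold threshold.

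Whether the group difference itself differed between embryos was tested with an interaction term. Of the 63 members 0 were called by edgeR, against 0.0393% of the 20333 genes tested (8 genes). An unadjusted p under 0.05 was reached by 0 members and by 1808 of all genes. DESeq2 called 0 members and 254 genes in all.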

How the data were processed

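Poly-A RNA of 19 lines, 1 stranded library per line, was sequenced as read pairs of 51 bases. As the study's methods state, reads were aligned with STAR to GRCm39, and the authors made the deposited expected counts with RSEM 1.3.0 on GENCODE M27. The counts came as whole numbers for 55416 genes and divide reads that fit several genes. The labels give each line's embryo, and the study gives the division into groups I and II.

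Counts were filtered with filterByExpr, normalized with TMM and tested by quasi-likelihood in edgeR 4.0.16 (R 4.3.3), with embryo alone, with embryo and group, or with their interaction. All genes tested entered the Benjamini-Hochberg adjustment, and calls required an adjusted p below 0.05 with more than a 1.5-fold change (no fold for the interaction). The fit was tested on simulated data. Sequences, gene positions and exon lengths were read from GRCm39 with GENCODE vM39, in which 54749 gene IDs were found, and coding sequences were compared with BLAST 2.17.0. A shared window is a run of 51 bases found in another gene's transcripts.

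Named in full were up to 14 members called between embryos by smallest p, the 3 smallest p between groups, and the 3 highest and lowest per kb. The members, lists and tests were chosen with earlier results of these data known. The alternatives were DESeq2 1.42.0, RLE factors, other filters, no fold threshold, protein coding genes alone, lines left out, the line number as a replicate block and other covariates. Interval counts and neighbours were chosen after values were seen.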

Additional observations from a re-analysis of the deposited data

Results flagged for a closer look

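Values of single lines that stood far from the other lines of their embryo, or of group II, were looked for in 18 members, over 72 groups of 5 to 8 lines. Chance puts about 1 group in 20 past the limit used (Dixon's), and 6 values were past it. Zfp985 was lowest in line 1.5 of embryo 1 at 53.4 CPM, with the other lines at 76.1 to 83.8 CPM. Zfp990 was lowest in line 2.1 of embryo 2 at 33.8 CPM, with the other lines at 49.7 to 60.3 CPM. Zfp992 was lowest in line 1.3 of embryo 1 at 180.3 CPM, with the other lines at 219.8 to 233 CPM. Zfp997 was highest in line 3.5 of embryo 3 at 35.6 CPM, with the other lines at 16.5 to 23.9 CPM. Zfp998 was highest in line 3.5 of embryo 3 at 103 CPM, with the other lines at 69.3 to 80.8 CPM. Zfp974 was highest in line 1.5 of group II at 4.31 CPM, with the other lines at 1.55 to 2.54 CPM. Both values of line 3.5 concern neighbours on chromosome 13, where the median log2 difference of that line from its sister lines was -0.02. Line 3.5 also had the highest sum of all lines over the described members (3116 CPM) and over the chromosome 4 cluster (2212 CPM). High values in this line were therefore not limited to chromosome 13, and their cause was not tested.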

How the results depend on the processing

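Of 13 members called among the embryos, 8 remained once lines 2.2, 3.1, 3.2, 3.6 and 3.7 were left out. These carry the 5 largest chromosome-wide shifts, and without them embryo 3 kept only lines 3.3, 3.4 and 3.5. The smaller number of lines cannot be told apart from the shifts in that fit. With all lines, 13 remained under DESeq2 and 11 under a replicate block made of the line numbers. Without those 5 lines 4 were called for embryo 3 against embryo 2 (9 with all lines), and the calls lost were of Zfp992, Zfp991, Zfp981, Zfp985 and Zfp989, whose log2 fold changes were -0.52, -0.56, -0.51, 0.73 and -0.53. Against embryo 1 the calls of Zfp991, Zfp982 and Zfp983 were lost (-0.50, 0.78 and -0.92). With no fold threshold 14 were called for embryo 3 against embryo 1, 4 for embryo 2 against embryo 1 and 7 for group I against group II. Of all genes tested, 1547 and 1124 of 18878 passed without it for those embryo pairs, and 5231 of 20333 for the groups. The replicate block gave 7 called members for embryo 3 against embryo 1, 9 against embryo 2, 2 for embryo 2 against embryo 1 and 0 for the groups. The labels state nothing that same-numbered lines share beyond the number. Their deviations correlated by -0.422 to 0.303 over 17 pairs, 6 of them over 0.1, which cannot decide whether such lines are paired. Leaving out each line in turn gave 7 to 11 called members for embryo 3 against embryo 1, 8 to 10 against embryo 2, 2 to 3 for embryo 2 against embryo 1, 11 to 14 among the embryos, 0 to 1 for the groups and 0 for the interaction. For the fits with lines left out or with the block, the share of all genes called is not given here. A change of these counts therefore cannot be told apart from a change over all genes. For members called between a pair of embryos, in the comparisons that called them, and for the 3 with the smallest p between groups, no log2 fold change changed sign under the alternatives run. Those of the other members were not recomputed one by one. Zfp990, Zfp998, Zfp984 against embryo 1 or 2 and Zfp951 kept their calls in all 29 alternatives. So did Zfp992, Zfp985 and Zfp960 for embryo 3 against embryo 1, and Zfp982 for embryo 3 against embryo 2. The cause of the lower counts was not tested. Fewer than 3 counts per line limited Zfp969 and Zfp957, and shared sequence limits the levels of near-identical members.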
